A study of Homo sapiens with 2 samples.

Results

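Aminoacyl-tRNA synthetases are the enzymes that join each amino acid to its tRNA, and the mRNA levels of 36 synthetase genes were examined here in WT and PERK-KO HEK293 cells. The genes were chosen by name. The deposited tables list 23614 gene names, and all 36 synthetase names were found in both tables, 20 for cytosolic enzymes and 16 for mitochondrial enzymes. HEK293 is a human embryonic kidney line. RNA came from 1 sample of WT cells and 1 sample of PERK-KO cells, both kept for 12 h in glucose-free OXPHOS medium with galactose and pyruvate, in which ATP production depends on mitochondria. The PERK-KO cells carry CRISPR/Cas9 edits in the gene of PERK, an ER-resident kinase, and the methods describe seeding of single cells and analysis of clones, so that effects of the knockout and of a clone cannot be told apart. With 1 sample per genotype no difference could be tested, and no p-value is given.

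In the cytosol each amino acid is charged by its own synthetase, apart from glutamate and proline, which share the fused enzyme EPRS, and phenylalanine, whose enzyme is built from the subunits FARSA and FARSB. The mitochondrial enzymes are encoded by separate nuclear genes whose symbols end in 2 and charge the tRNAs made from mitochondrial DNA. GARS and KARS are single genes that supply both compartments, and glutaminyl-tRNA in mitochondria is made by an amidation route that needs no glutaminyl-tRNA synthetase. PERK phosphorylates eIF2α, which slows general translation and favours translation of the transcription factor ATF4. ATF4 is also reached through GCN2, the kinase that senses uncharged tRNA, and many cytosolic synthetase genes are widely described as ATF4 targets. ATF4 binds with C/EBP partners to an element whose core is TGATGNAA.

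The levels are FPKM, sequenced fragments scaled by transcript length and by library size, with the lower and upper confidence limits that Cufflinks gives for 1 library. These limits carry counting error and not the variation between cultures. For the 36 synthetases their half-width was 3.17% to 15.4% of the value in WT and 2.84% to 15.9% in PERK-KO cells, widest for the genes with the lowest levels. Bounds of a ratio were taken from the lower limit of 1 sample over the upper limit of the other, so that they exclude 1 exactly where the limits of the samples do not overlap. The targeted gene EIF2AK3 had an FPKM of 5.61 (limits 5.11 to 6.12) in WT and 3.89 (3.44 to 4.34) in PERK-KO cells. Its transcript was thus still present, and FPKM does not show whether it encodes the full protein. Of 4 genes described in HEK293 cells, NEFL was at 44.9 and 33.4 in WT and PERK-KO cells, PAX2 at 0.981 and 0.748, NEFM at 0.662 and 5.21, and IRS4 at 0.121 and 27.1. The IRS4 level of the WT sample therefore goes against the usual description of the line. The hepatocyte gene ALB and the brown adipocyte gene UCP1 were listed at 0 in both samples, the leukocyte gene PTPRC was at 0.108 and 0.180, and the endothelial gene PECAM1 at 1.35 and 1.36. Since each genotype has 1 sample, no result could be given without it, and whether the IRS4 and NEFM differences have any part in the synthetase values was not tested.

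Promoter windows of 300 bases, from 250 before to 50 after the RefSeq transcription start, were found for 30 of the 36 genes, and each matched the GRCh37 genome once. DARS, LARS, VARS, YARS, AARS2 and VARS2 have no entry in the promoter table. The core TGATGNAA was searched on both strands because of the link between ATF4 and synthetase genes. It was found in 6 of 16 cytosolic windows and 1 of 14 mitochondrial windows, compared with 3.62% of all 35116 promoter windows and 1.55% of 9969 windows of expressed genes. The sequences around it are given as 30 bases each, read 5′ to 3′ along the gene, with the match in capitals.
AARS (chr16:70323578-70323607, minus strand): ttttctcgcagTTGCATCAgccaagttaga
CARS (chr11:3078637-3078666, minus strand): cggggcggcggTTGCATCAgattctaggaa
IARS (chr9:95055974-95056003, minus strand): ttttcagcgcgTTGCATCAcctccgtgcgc
MARS (chr12:57881836-57881865, plus strand): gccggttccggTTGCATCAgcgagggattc
NARS (chr18:55289036-55289065, minus strand): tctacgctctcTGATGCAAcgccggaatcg
TARS (chr5:33441062-33441091, plus strand): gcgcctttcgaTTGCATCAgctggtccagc
YARS2 (chr12:32909010-32909039, minus strand): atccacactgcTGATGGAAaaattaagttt

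The 6 cytosolic matches are the same 8 bases, TGATGCAA, which read TTGCATCA where they lie on the opposite strand, and YARS2 has TGATGGAA. In CARS, IARS, MARS, NARS and TARS the match begins within 15 bases of the start, and in AARS it begins at position -187 from it. All 6 cytosolic genes with a match belong to the 13 cytosolic synthetases widely described as ATF4 or amino acid response genes, of which 10 had a window. None of the 6 windows of the other cytosolic synthetases had one. A match of letters is not evidence of binding, and these windows do not cover introns, where such elements also lie.

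The cytosolic enzymes were the more highly expressed group in both samples. Their FPKM ranged from 22.6 to 102 in WT cells, with a median of 49.7, and from 27.0 to 123 in PERK-KO cells, with a median of 58.7. The mitochondrial enzymes ranged from 3.88 to 59.3 in WT cells, with a median of 15.6, and from 5.49 to 72.2 in PERK-KO cells, with a median of 16.8. TARS (threonine), FARSA and SARS (serine) were the 3 highest in both samples, and PARS2 (proline), MARS2 (methionine) and FARS2 (phenylalanine) the 3 lowest. The groups overlapped, since IARS2 (isoleucine) and CARS2 (cysteine) were within the cytosolic range in both samples and TARS2 (threonine) was within it in PERK-KO cells. The summed FPKM of the 20 cytosolic genes was 1086 in WT and 1277 in PERK-KO cells, 1.18-fold higher, and that of the 16 mitochondrial genes was 274 and 317, 1.16-fold higher.

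**Figure D1:**
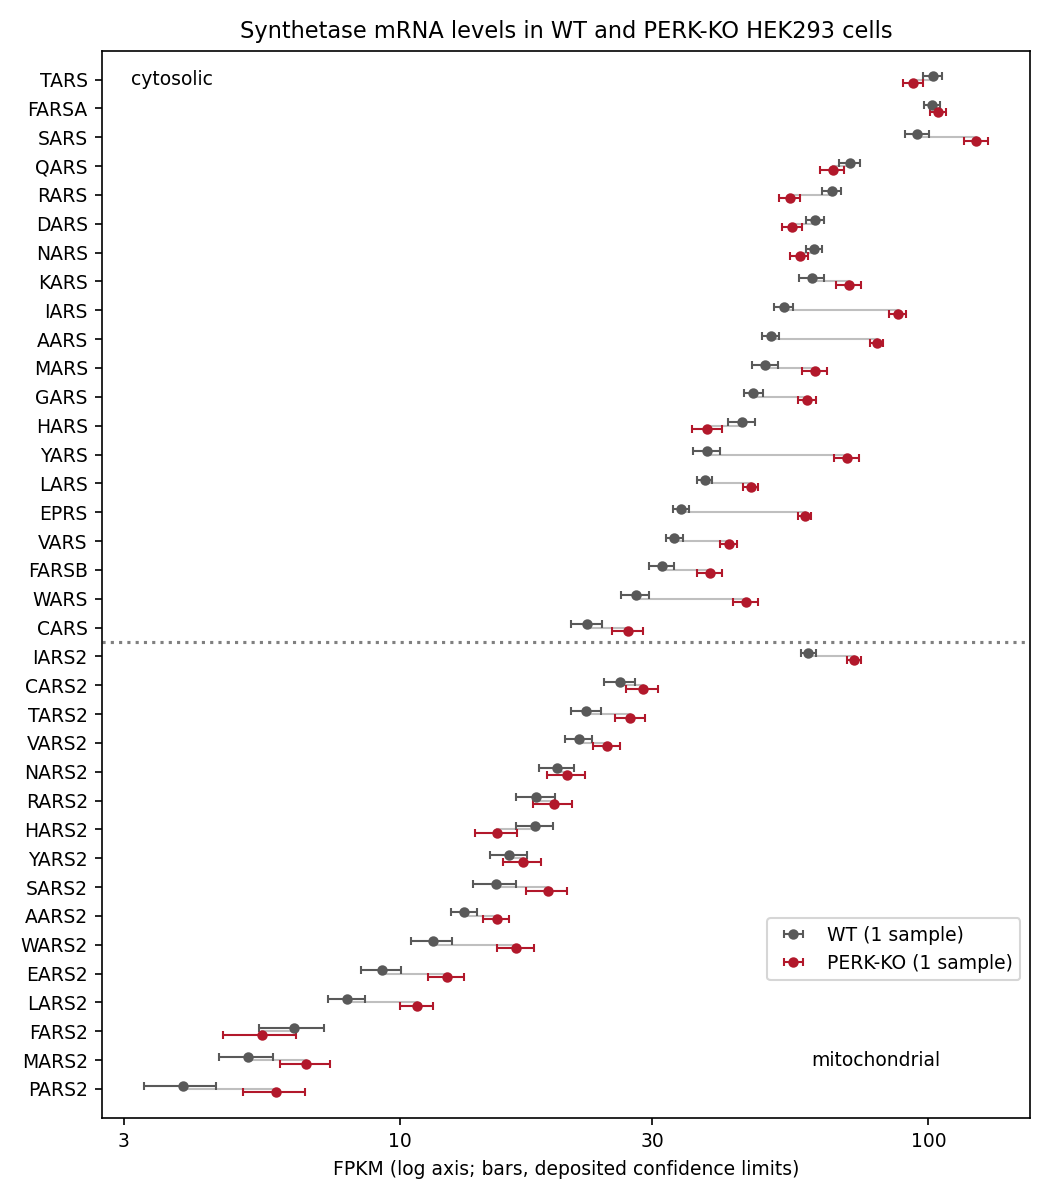
FPKM of each synthetase gene (log axis) in the WT sample (grey) and the PERK-KO sample (red), with the deposited confidence limits as bars, cytosolic enzymes above the dotted line and mitochondrial enzymes below it. The widest separations are those of YARS, EPRS, IARS, WARS and AARS, whose PERK-KO values lie 1.59 to 1.84 times above the WT values.

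More synthetase genes were higher than lower in PERK-KO cells, where more RNA per cell and more cells with the RNA cannot be told apart. Of the 36, 28 had a higher FPKM in PERK-KO cells and 8 a lower one, while 53.6% of the 14594 expressed genes (FPKM of at least 1 in at least 1 sample) were higher. A difference of more than 1.5-fold was seen in 6 of the 36, all higher in PERK-KO cells. Among all expressed genes 10.1% were more than 1.5-fold higher and 7.54% more than 1.5-fold lower. Among the genes that reached an FPKM of 5 in each sample, which include all synthetases but PARS2, these shares were 5.91% and 5.72%. The confidence limits did not overlap in 27 synthetases, 23 higher and 4 lower. In all expressed genes they did not overlap in 44.8%, with 26.1% higher and 18.7% lower, and among those that reached 5 in each sample 28.9% were higher and 24.9% lower.

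The 5 cytosolic genes past 1.5-fold were YARS, EPRS, IARS, WARS and AARS. YARS, which charges tyrosine and lies on chromosome 1 from 33240840 to 33283633 (GRCh37, as all loci here), had an FPKM of 38.0 (limits 35.8 to 40.3) in WT and 70.1 (66.4 to 73.8) in PERK-KO cells. Its level was thus 1.84-fold higher (bounds 1.65 to 2.06), the largest ratio of the 36 genes. EPRS, the fused glutamyl- and prolyl-tRNA synthetase, is on chromosome 1 from 220141942 to 220220000. Its FPKM was 34.1 (32.9 to 35.2) in WT and 58.4 (56.7 to 60.02) in PERK-KO cells, 1.71-fold higher (1.61 to 1.83). IARS charges isoleucine and lies on chromosome 9 from 94972490 to 95056038. The FPKM of IARS was 53.2 (51.1 to 55.3) and 87.5 (84.3 to 90.7), 1.64-fold higher (1.52 to 1.78).

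WARS charges tryptophan and is also known as an interferon-induced gene. It lies on chromosome 14 from 100800125 to 100842680, with an FPKM of 27.9 (26.2 to 29.7) in WT and 45.2 (42.7 to 47.7) in PERK-KO cells, 1.62-fold higher (1.44 to 1.82). AARS charges alanine and lies on chromosome 16 from 70286297 to 70323412. The FPKM of AARS was 50.3 (48.5 to 52.0) and 79.8 (77.4 to 82.2), 1.59-fold higher (1.49 to 1.70). For EPRS, IARS and YARS the whole bounds lay above 1.5, and for AARS and WARS the lower bound was just below it. None of the 20 cytosolic genes reached a 2-fold difference.

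**Figure D2:**
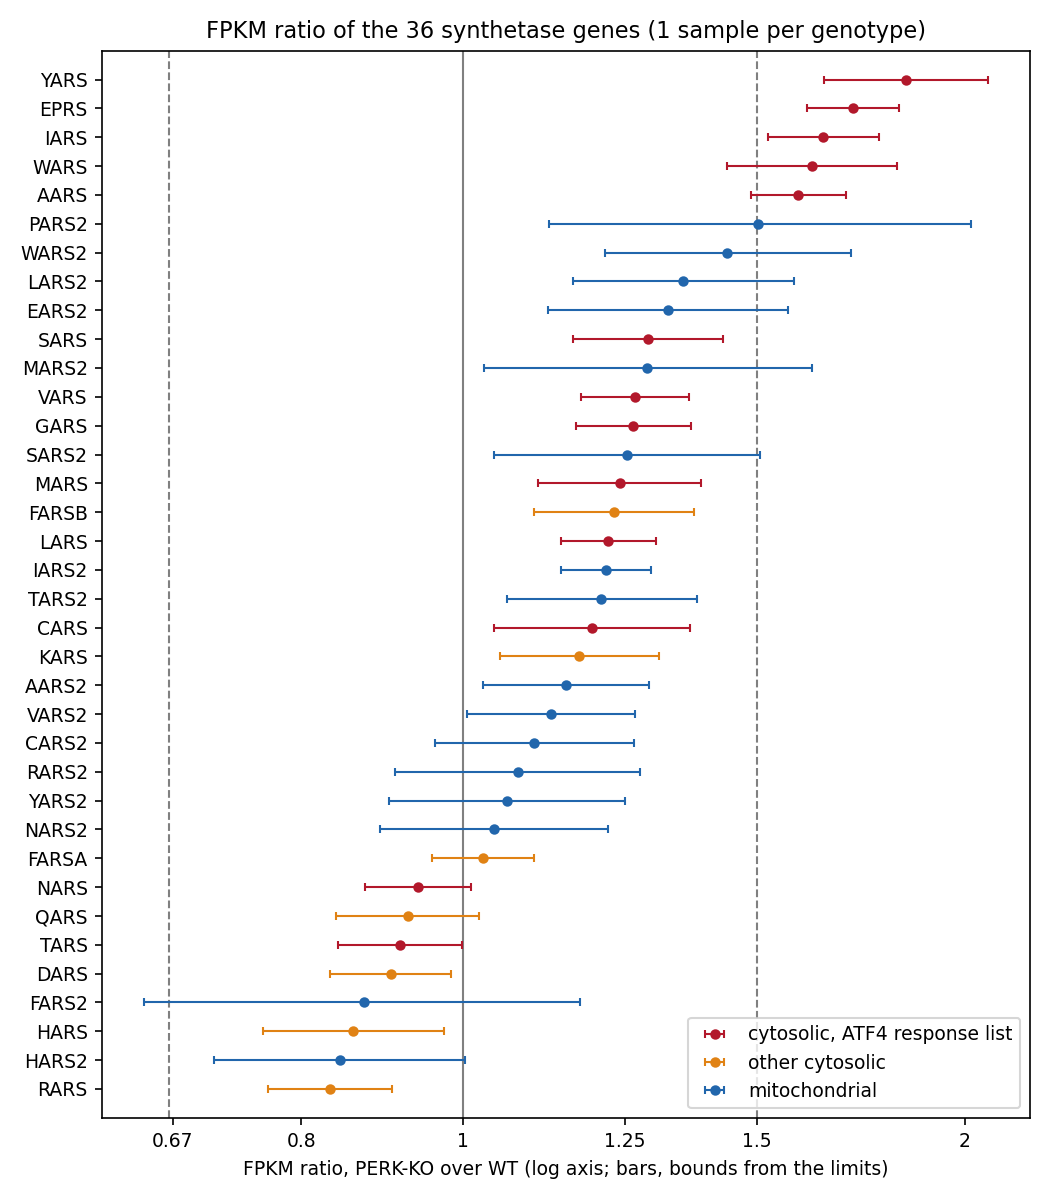
FPKM ratio of PERK-KO over WT (log axis) for the 36 genes in order of the ratio, with bounds from the confidence limits as bars, a solid line at 1, dashed lines at 1.5-fold either way, and colours for cytosolic genes of the ATF4 response list (red), other cytosolic genes (orange) and mitochondrial genes (blue). The 5 highest points, from 1.59 to 1.84, are cytosolic synthetases of the ATF4 response list, and the lowest, RARS, is at 0.833.

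Another 8 cytosolic genes were higher by less than 1.5-fold with limits that did not overlap, so that 13 of the 20 were higher beyond the limits. Of all expressed genes 26.1% were higher in this way, or 28.9% of those that reached an FPKM of 5 in each sample. SARS (serine) had an FPKM of 95.4 (90.4 to 100.3) in WT and 123 (117 to 129) in PERK-KO cells, with a ratio of 1.29, and was the most abundant synthetase mRNA in PERK-KO cells. VARS (valine) had 33.1 (31.8 to 34.3) and 41.9 (40.4 to 43.4), a ratio of 1.27. GARS, the glycine enzyme of both compartments, had 46.6 (44.7 to 48.6) and 59.0 (56.7 to 61.3), a ratio of 1.26. The ratios of these genes were similar to each other, and their bounds overlapped.

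MARS (methionine) was at 49.1 (46.3 to 51.9) in WT and 61.0 (57.6 to 64.4) in PERK-KO cells, with a ratio of 1.24. LARS (leucine) was at 37.8 (36.5 to 39.0) and 46.2 (44.7 to 47.7), a ratio of 1.22. CARS (cysteine) was the least abundant cytosolic synthetase in both samples, with 22.6 (21.0 to 24.1) and 27.0 (25.2 to 28.8), a ratio of 1.19. KARS, the lysine enzyme of both compartments, was close to these, with 60.1 (56.8 to 63.5) and 70.6 (66.8 to 74.4), a ratio of 1.17.

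The subunits of the phenylalanine enzyme had ratios whose bounds were only just apart. FARSB, the β subunit, had 31.3 (29.5 to 33.0) in WT and 38.6 (36.5 to 40.7) in PERK-KO cells, with a ratio of 1.23 (1.10 to 1.38). FARSA, the α subunit, had 102 (98.1 to 105) and 104 (100.6 to 108), a ratio of 1.03 (0.958 to 1.10) with overlapping limits. The order of the subunits was the opposite after adjustment for transcript length, since with the median of genes of like length subtracted the log2 ratio was 0.19 for FARSA and 0.04 for FARSB. Although the protein holds both subunits in equal number, the FPKM of FARSA was 3.25 times that of FARSB in WT and 2.71 times in PERK-KO cells.

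Cytosolic genes with a lower level in PERK-KO cells were fewer, and their differences were small. RARS (arginine) had an FPKM of 65.6 (63.0 to 68.2) in WT and 54.6 (52.1 to 57.1) in PERK-KO cells, 1.201-fold lower, the lowest ratio of the 36 genes. HARS (histidine) had 44.3 (41.7 to 47.0) and 38.1 (35.6 to 40.6), 1.16-fold lower. DARS (aspartate) had 61.1 (58.7 to 63.5) and 55.3 (52.9 to 57.7), 1.10-fold lower.

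TARS had 102 (97.7 to 106) in WT and 93.5 (89.4 to 97.6) in PERK-KO cells, 1.09-fold lower, with limits that were only just apart. QARS (glutamine) had 71.0 (67.8 to 74.3) and 65.9 (62.4 to 69.3), and NARS (asparagine) 60.7 (58.5 to 62.8) and 57.0 (54.8 to 59.2). The limits of QARS and NARS overlapped as deposited. With the median log2 ratio of expressed genes set to 0 they did not, and 6 of the 20 cytosolic genes in place of 4 were lower beyond the limits. As deposited, 18.7% of all expressed genes were lower in this way, or 24.9% of those that reached an FPKM of 5 in each sample. The shares with the median set to 0 were not computed. Of the 6 cytosolic genes with a lower value in PERK-KO cells, all but HARS were among the 8 most abundant synthetases of WT cells. The WT level is also the denominator of the ratio, and the order in PERK-KO cells was different. There TARS ranked 3, QARS 9, NARS 13, DARS 14, RARS 15 and HARS 20 of the 36.

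The 13 synthetases described as ATF4 or amino acid response genes had a median log2 ratio of 0.34, with 11 higher and 1 lower beyond the confidence limits and 5 past 1.5-fold. The 7 other cytosolic synthetases had a median of -0.11, with 2 higher (FARSB and KARS) and 3 lower (RARS, HARS and DARS) beyond the limits and none past 1.5-fold. The median over all expressed genes was 0.04. Of those genes, 26.1% were higher and 18.7% lower beyond the limits. More than 1.5-fold higher were 10.1% of them, or 5.91% of those with an FPKM of at least 5 in each sample. The lists were chosen with earlier results of these data known, so the contrast between the 13 and the 7 is only a description. The division was not complete, because NARS and TARS are in the first group and were not higher. Both have the TGATGCAA core within 15 bases of the start, as do CARS, IARS and MARS, whose log2 ratios were 0.26, 0.72 and 0.31. Conversely, EPRS, WARS, SARS and GARS had log2 ratios of 0.78, 0.69, 0.37 and 0.34 without a match in the window. The levels of this group of 13 summed to 651 in WT and 849.7 in PERK-KO cells, 1.31-fold higher, and those of the other 7 to 435 and 428.

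ATF4 and the other genes of that response were also different between the samples. The ATF4 mRNA had an FPKM of 342 (326 to 358) in WT and 506 (483 to 528) in PERK-KO cells, 1.48-fold higher. EIF2AK4, which encodes GCN2, had 14.8 (14.1 to 15.6) and 18.0 (17.1 to 18.8), 1.21-fold higher. Of 20 other genes described as ATF4 targets, 19 were higher in PERK-KO cells, 16 beyond the confidence limits and 11 past 1.5-fold, and none was lower beyond the limits. For all expressed genes the shares were 53.6% higher, 26.1% higher beyond the limits, 10.1% higher past 1.5-fold and 18.7% lower beyond the limits. The 11 targets past 1.5-fold were ASNS, PSAT1, PHGDH, MTHFD2, PYCR1, SLC7A11, SLC7A5, SLC3A2, SLC7A1, CHAC1 and SESN2. Their list had a median log2 ratio of 0.63, above the 0.34 of the ATF4 response synthetases. Translation of ATF4, through which eIF2α kinases act, is not measured by FPKM.

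**Figure D3:**
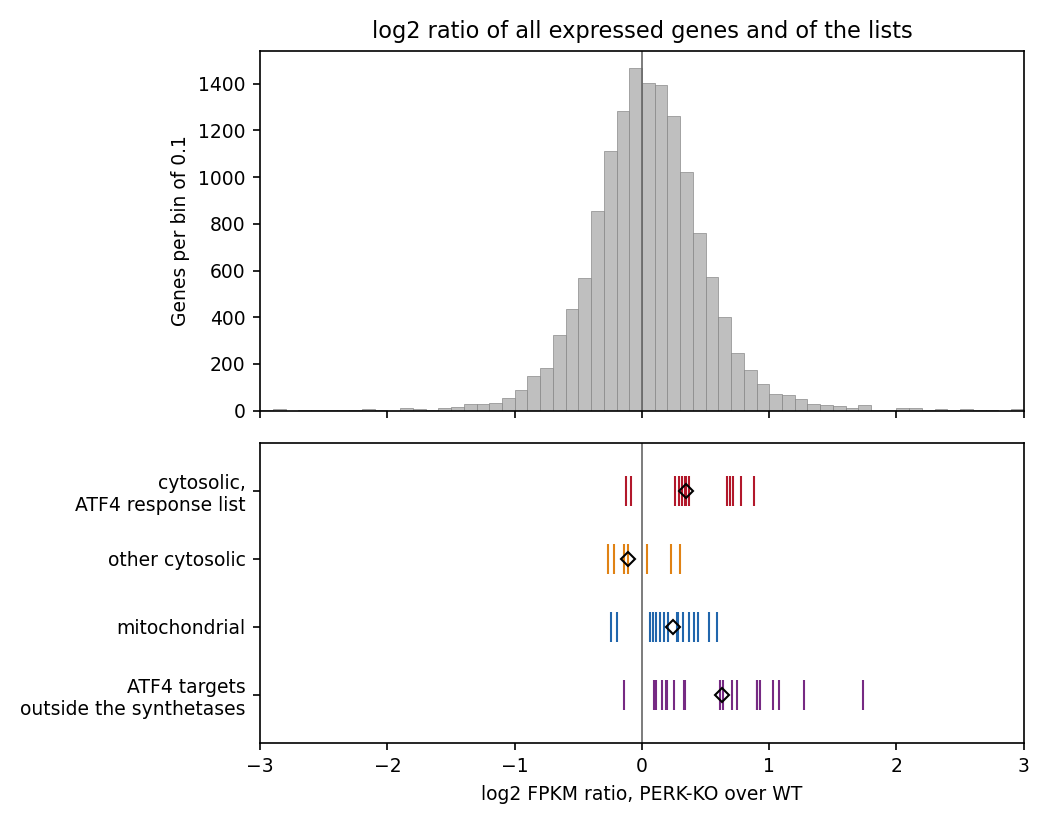
Upper panel, number of expressed genes per bin of log2 FPKM ratio (PERK-KO over WT) between -3 and 3; lower panel, each gene of 4 lists as a tick and the list's median as a diamond. The medians are 0.34 for the ATF4 response synthetases, -0.11 for the other cytosolic synthetases, 0.24 for the mitochondrial synthetases and 0.63 for ATF4 targets outside the synthetases.

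The mitochondrial synthetases were mostly higher in PERK-KO cells. Of the 16, 14 had a higher FPKM, 10 beyond the confidence limits, and none was lower beyond them. Among all expressed genes 53.6% were higher, with 26.1% higher and 18.7% lower beyond the limits. The median log2 ratio of the 16 was 0.24, compared with 0.30 for the cytosolic genes, and the values ran from -0.24 to 0.59 against -0.26 to 0.88. The difference between the medians, 0.055, was 0.0095 with the median of genes of like transcript length subtracted and 0.090 among genes that reached an FPKM of 5 in each sample. PARS2, which charges proline, had an FPKM of 3.88 (3.28 to 4.47) in WT and 5.83 (5.04 to 6.61) in PERK-KO cells. Its ratio of 1.502 (1.13 to 2.02) just passed the threshold, and its bounds were wide.

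WARS2 (tryptophan) had 11.5 (10.5 to 12.5) in WT and 16.6 (15.3 to 17.9) in PERK-KO cells, 1.44-fold higher (1.22 to 1.71). LARS2 (leucine) had 7.95 (7.32 to 8.58) and 10.8 (9.98 to 11.6), 1.36-fold higher. EARS2 (glutamate) had 9.25 (8.44 to 10.05) and 12.3 (11.3 to 13.2), 1.33-fold higher. These 4 genes had the largest ratios and were among the 6 least abundant mitochondrial synthetases of WT cells. The WT level is also the denominator of the ratio. In PERK-KO cells PARS2 ranked 35, LARS2 33, EARS2 32 and WARS2 29 of the 36 synthetases.

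MARS2 had 5.15 (4.55 to 5.75) in WT and 6.64 (5.92 to 7.37) in PERK-KO cells, with a ratio of 1.29. SARS2 (serine) had 15.2 (13.7 to 16.6) and 19.0 (17.3 to 20.7), a ratio of 1.254. IARS2 had 59.3 (57.4 to 61.2) and 72.2 (70.0 to 74.4), a ratio of 1.22, and as the most abundant mitochondrial synthetase it had the narrowest bounds of the group on a log scale. TARS2 (threonine) had 22.5 (21.0 to 24.0) and 27.3 (25.5 to 29.03), a ratio of 1.21.

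AARS2 (alanine) had 13.2 (12.5 to 13.97) in WT and 15.2 (14.4 to 16.1) in PERK-KO cells, with a ratio of 1.15. VARS2 (valine) had 21.8 (20.5 to 23.0) and 24.6 (23.2 to 26.0), a ratio of 1.13 with limits that were only just apart. In the remaining 6 the limits overlapped. CARS2 (cysteine) had an FPKM of 26.1 in WT and 28.8 in PERK-KO cells, RARS2 (arginine) 18.1 and 19.5, YARS2 (tyrosine) 16.1 and 17.1, and NARS2 (asparagine) 19.8 and 20.7. Their ratios lay between 1.04 and 1.10. FARS2 had 6.29 in WT and 5.49 in PERK-KO cells, with a ratio of 0.873, with bounds of 0.644 to 1.18, the widest of the 36 genes on a log scale.

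HARS and HARS2 lie head to head on chromosome 5, HARS on the minus strand from 140053490 to 140071312 and HARS2 on the plus strand from 140071018 to 140078890, so that the listed loci share 295 bases. HARS2, the mitochondrial histidine enzyme, had an FPKM of 18.0 (16.6 to 19.5) in WT and 15.2 (13.8 to 16.6) in PERK-KO cells, with a ratio of 0.844 with limits that just overlapped. HARS had a ratio of 0.860. The genes of this pair thus had nearly the same ratio, and both were at the low end of their group. Reads from the shared bases cannot be assigned to either gene without strand, and the sources used here do not state that counting used strand. The window between their starts holds CCGGAAG, the core bound by GABPα, at a pair of places. Each lies in the window of both genes, on opposite strands, and is shown once from each gene, with the match in capitals.
HARS2 (chr5:140071021-140071050, plus strand): tccggctcctcCCGGAAGtgccgaagctgg
HARS (chr5:140070946-140070975, minus strand): cgactcgatagCCGGAAGtcatccttgctg

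CCGGAAG was searched, on both strands, because GABPα is known as a regulator of nuclear genes for mitochondrial proteins. It was found in 6 of 14 mitochondrial windows (EARS2, HARS2, MARS2, PARS2, SARS2 and TARS2) and in 8 of 16 cytosolic windows (CARS, GARS, HARS, KARS, NARS, RARS, SARS and WARS). Among all promoter windows 10.3% had it, and among windows of expressed genes 18.8%. Of the 6 mitochondrial genes with the core, 5 were higher in PERK-KO cells beyond the limits, and HARS2 overlapped. Of the 8 cytosolic genes with it, CARS, GARS, KARS, SARS and WARS were higher beyond the limits, RARS and HARS were lower, and NARS overlapped, while 26.1% of all expressed genes were higher and 18.7% lower in this way. PARS2, the mitochondrial gene with the largest ratio, and WARS each have a pair of matches, and 1 of each is shown with the match in capitals.
PARS2 (chr1:55230312-55230341, minus strand): ctttggctacaCTTCCGGaaaacctctcac
WARS (chr14:100842671-100842700, minus strand): gcgccgtcgggCCGGAAGttgttccgtccg

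The cytosolic and mitochondrial enzymes for the same amino acid were next compared within each sample. For 16 amino acids both genes are among the members, with EPRS counted for glutamate and for proline and FARSA taken for phenylalanine. In WT cells the cytosolic mRNA was the more abundant in 14 of 16 pairs, with ratios up to 16.2 (FARSA over FARS2) and a median of 3.65. The ratio of 16.2 rests on the choice of FARSA, the more abundant subunit, and the next highest was 9.54 (MARS over MARS2). In PERK-KO cells the cytosolic mRNA was the more abundant in 15 of 16, with a median of 3.76. The pair for isoleucine had the opposite order in the samples. IARS was at 0.898 times IARS2 in WT cells (bounds 0.835 to 0.964) and at 1.21 times IARS2 in PERK-KO cells (1.13 to 1.30).

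In 4 pairs the bounds of the ratio did not overlap and the cytosolic share was larger in PERK-KO cells. YARS was 2.37 times YARS2 in WT cells (2.06 to 2.72) and 4.10 times in PERK-KO cells (3.58 to 4.71), AARS was 3.80 and 5.24 times AARS2, and EPRS was 3.68 and 4.76 times EARS2, with isoleucine as the other pair. In 2 pairs the cytosolic share was smaller. RARS was 3.62 times RARS2 in WT cells (3.21 to 4.11) and 2.80 times in PERK-KO cells (2.46 to 3.20), and TARS was 4.53 and 3.43 times TARS2. In the other 10 pairs the bounds overlapped. For cysteine CARS was below CARS2 in both samples, at 0.866 and 0.937 times its level. The scaling of a library cancels in these ratios, since both genes come from the same sample.

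**Figure D4:**
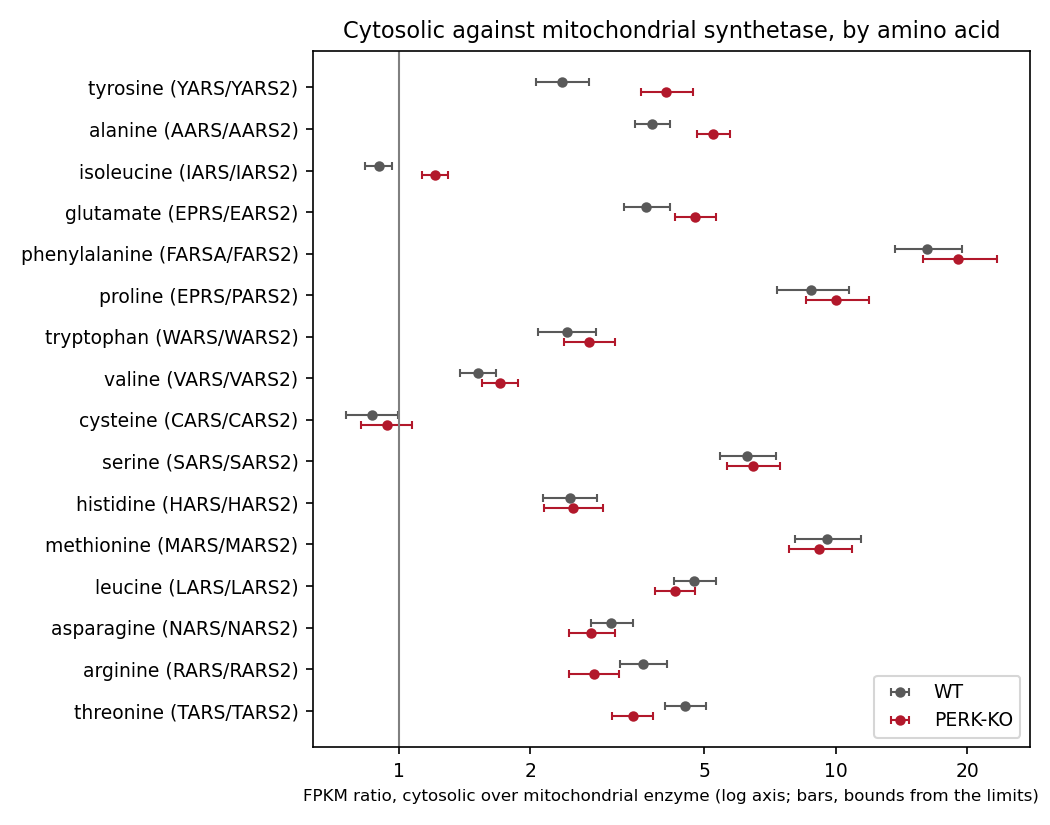
FPKM ratio of the cytosolic over the mitochondrial synthetase for each amino acid (log axis) in WT (grey) and PERK-KO (red) samples, with bounds from the confidence limits, ordered by the difference between samples. Tyrosine, alanine, isoleucine and glutamate at the top have separate bounds with the higher ratio in PERK-KO cells, and arginine and threonine at the bottom with the lower ratio.

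In the cytosol 8 synthetases and 3 scaffold proteins form the multisynthetase complex. The mRNAs of its enzymes did not differ in 1 direction. EPRS, IARS, KARS, LARS and MARS were higher in PERK-KO cells beyond the limits, RARS and DARS were lower, and QARS overlapped, with ratios from 0.833 to 1.71 and a median log2 ratio of 0.26, against 0.32 for the 12 cytosolic genes outside the complex. Among all expressed genes 26.1% were higher and 18.7% lower beyond the limits. The scaffold genes were not higher beyond the limits. AIMP1 had an FPKM of 22.2 (20.7 to 23.7) in WT and 19.1 (17.7 to 20.6) in PERK-KO cells, and AIMP2 had 41.1 (37.8 to 44.4) and 34.2 (31.1 to 37.3), both with limits apart. EEF1E1 had 33.1 (29.97 to 36.3) and 38.4 (34.2 to 42.5), which overlapped. These values are not adjusted for transcript length. The log2 ratio of AIMP2 (1198 bases) was -0.27, and the median of genes of like length was also -0.27 at 1192 bases. For EEF1E1 (1047 bases) the log2 ratio was 0.21, beside a median of -0.24 at 1036 bases. AIMP1 (2773 bases) was at -0.22, beside -0.0032. XPOT, the exporter that carries tRNA out of the nucleus, had 37.1 (35.7 to 38.5) and 65.2 (63.2 to 67.2), 1.76-fold higher. Without adjustment for length this ratio lay between those of EPRS and YARS. The XPOT transcript has 6370 bases, and its log2 ratio of 0.81 stands beside a median of 0.29 for genes of like length (6381 bases). That median was 0.19 for EPRS and -0.027 for YARS.

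Synthetases fall into structural classes by the fold of their catalytic domain. Among cytosolic genes, the 9 of class I had a median log2 ratio of 0.31 and the 10 of class II 0.14, and among mitochondrial genes the 9 of class I had 0.28 and the 7 of class II 0.21. Beyond the confidence limits, 6 of the 9 mitochondrial genes of class I and 4 of the 7 of class II were higher in PERK-KO cells, and in the others the limits overlapped. Among cytosolic genes, 7 of the 9 of class I were higher and 1 was lower beyond the limits. Of the 10 of class II, 5 were higher and 3 lower. The share of all expressed genes higher beyond the limits was 26.1%, and 18.7% were lower. EPRS carries both folds and was left out of this division. These are counts of a few genes, and they were not tested.

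Transcript length is a property that moved with the ratio across all genes. The median log2 ratio of the 201 expressed genes nearest in length was -0.15 for the length of FARSA (1811 bases) and 0.26 for that of FARSB (6761 bases), the extremes among the 36. YARS, WARS, PARS2 and AARS kept values of 0.91, 0.71, 0.60 and 0.62, since genes of their length had medians near 0. EPRS and IARS, with transcripts of 4862 and 4483 bases, went from 0.78 to 0.59 and from 0.72 to 0.54. AARS2, with 4798 bases, went from 0.21 to 0.0056. After the subtraction 28 of the 36 genes were above 0, the same number as before it. What part length has in the ratios was not tested.

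Some synthetase loci overlap other genes, whose reads could be shared. The end of MARS shares 68 bases with DDIT3, which encodes CHOP and was at 58.2 in WT and 66.2 in PERK-KO cells. YARS shares 591 bases with S100PBP, which was at 7.70 and 9.74, far below YARS in both samples. SARS2 shares 189 bases with MRPS12, a mitochondrial ribosomal protein gene whose FPKM of 96.7 and 68.8 was above that of SARS2 and lower in PERK-KO cells, the direction opposite to SARS2. IARS shares 133 bases with SNORA84, which was at 14.3 in WT and 0 in PERK-KO cells. The loci of LARS2 and LARS2-AS1, on opposite strands, share 26851 bases, and LARS2-AS1 was at 2.40 and 2.71. HARS and HARS2 overlap each other, as given above, and the genes that overlap EPRS and IARS2 were at 0 in both samples. VARS and VARS2 are also listed on alternate haplotypes of chromosome 6, in 11 further rows, all at 0 in both samples.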

How the data were processed

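Per the labels, polyadenylated mRNA of 1 WT and 1 PERK-KO sample of HEK293 cells was sequenced. The submitters' processing notes name TopHat2 2.0.13, Cufflinks 2.2.1 and hg19. The authors deposited FPKM per gene with confidence limits, in 25277 rows per table, and no library totals, so the depth is unknown. The gene annotation is not given in the sources used here.

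From these values the ratio of PERK-KO to WT was computed, with no pseudocount, for the 14594 genes that reached an FPKM of 1 in either sample, and read against 1.5-fold, a round value near the study's own threshold. No test was made. Synthetase rows on the main chromosomes were used, with loci written 1-based. Transcript lengths came from GENCODE 44 canonical transcripts on GRCh37, for 92.5% of the expressed genes and all 36 synthetases. Promoter sequences came from RefSeq (GRCh38.p14) and were placed on GRCh37 by exact match. The members, the gene lists and the motifs were chosen with earlier results of these data known. All synthetases could be named. Of other genes, the rule named EIF2AK3, ATF4, EIF2AK4, AIMP1, AIMP2, EEF1E1, XPOT, the marker genes and list genes past 1.5-fold. DDIT3, S100PBP, MRPS12, SNORA84, LARS2-AS1, DTD1, TARSL2, QRSL1, GATC, PET112 and MTFMT were chosen after their values were seen. Python 3.11.15, numpy 2.4.6 and pandas 2.3.3 were used, and the calculations were tested on simulated data. Other thresholds, filters, pseudocounts, scalings and a length adjustment were tried.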

Additional observations from a re-analysis of the deposited data

How the results depend on the processing

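No paired analysis was possible because each genotype has 1 sample, and for the same reason no replicate could be left out. The counts past the threshold depended on it. At 1.2-fold, 11 cytosolic and 8 mitochondrial synthetases were higher and 1 cytosolic synthetase was lower, and at 2-fold none of either group was higher (0 and 0). The single mitochondrial gene past 1.5-fold, PARS2, dropped out when an FPKM of 5 was required in each sample, with pseudocounts of 0.1 and 1, with the median of expressed genes set to 0 and with equal 75th percentiles (0 genes each). With the median set to 0, 1 mitochondrial gene (HARS2) was lower beyond the confidence limits, compared with 0, and 6 cytosolic genes, compared with 4. As deposited, 18.7% of all expressed genes were lower in this way, and the share with the median set to 0 was not computed. The 5 cytosolic genes past 1.5-fold became 4 with the length median subtracted and stayed at 5 under the other filters, pseudocounts and scalings. The median log2 ratio ranged from 0.22 to 0.30 for cytosolic and from 0.20 to 0.24 for mitochondrial genes, and their difference from 0.0095 to 0.090. Over all genes the lower and higher counts, 1100 and 1481, were 3262 and 4215 at 1.2-fold, 304 and 479 at 2-fold, 1942 and 2496 without a filter, 536 and 554 where 5 was required in each sample, and 700 and 854 with the length median subtracted. A pseudocount of 1 left 944 higher genes. The length median moved 5 of 36 synthetases (EPRS, FARSB, IARS, AARS2 and EARS2) by more than 0.16, the median half-width of their bounds on the log2 scale, and changed the sign of none of the 36.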

Other observations

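Of 12 other genes of tRNA charging found in the tables, 3 were higher in PERK-KO cells beyond the confidence limits (XPOT, TARSL2 and QRSL1), 1 was lower (DTD1) and 8 overlapped. Among all expressed genes 26.1% were higher and 18.7% lower in this way. The median log2 ratio of the 12 was -0.056, compared with 0.34 for the 13 ATF4 response synthetases, and the difference between the lists was not tested. Without adjustment for transcript length XPOT was the only 1 of the 12 past 1.5-fold, while 10.1% of all expressed genes were more than 1.5-fold higher. DTD1, which removes D-amino acids from tRNA, had an FPKM of 82.5 (78.8 to 86.3) in WT and 57.9 (54.5 to 61.2) in PERK-KO cells, 1.43-fold lower. TARSL2, a further threonyl-tRNA synthetase gene outside the 36, was at 13.5 (12.5 to 14.4) and 15.8 (14.7 to 16.9), higher in PERK-KO cells, whereas TARS was lower.

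The amidation route to mitochondrial glutaminyl-tRNA needs QRSL1, GATC and PET112. QRSL1 had 7.39 (6.77 to 8.004) in WT and 8.98 (8.25 to 9.70) in PERK-KO cells, 1.22-fold higher. GATC had 27.2 (25.7 to 28.7) and 25.6 (24.0 to 27.2), and PET112 had 11.1 (10.005 to 12.1) and 11.8 (10.7 to 12.99), both with overlapping limits. MTFMT, which formylates the initiator methionyl-tRNA of mitochondria, had 13.02 (11.999 to 14.03) and 11.5 (10.5 to 12.5), again with overlapping limits.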
